A study of Tegula funebralis with 16 samples.

Results

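The heat response of northern Californian snails was measured in 8 of the 16 libraries of a whole-animal RNA sequencing series on the intertidal snail Chlorostoma funebralis, listed in the labels as Tegula funebralis. The 8 are all libraries of the northern sites Slide Ranch and Pigeon Point. Each site gave 2 control libraries, from snails held in air at 15 °C for 5.5 hours, and 2 heat libraries. For heat, the air began at 15 °C and warmed by 3 °C every 0.5 hours up to 34 °C, where it stayed for the last 2 hours and 20 minutes of the same 5.5 hours. The other 8 libraries came from the southern sites Aliso Beach and La Jolla, treated alike. No allele, drug or other agent was applied to any group. RNA was extracted from each individual, but the labels do not say how many individuals a library holds, nor their age or sex, so the p-values reflect variation among libraries, which may be technical. Heat was compared with control over the 4 groups of 2, with site as a term.

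Cells meet heat with the heat shock response, in which heat shock transcription factors switch on genes of molecular chaperones. HSP70 and HSP90 bind unfolded proteins and use ATP to refold or hold them, HSP40 (DnaJ) proteins and other co-chaperones deliver clients and set the ATP cycle, and small heat shock proteins keep damaged proteins from clumping. Proteins beyond repair go to the proteasome or to autophagy, and inhibitors of apoptosis oppose the proteases that carry out cell death. Intertidal snails meet such temperatures when low tide leaves them in the sun.

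The table gives 1 value per library for each of 15903 assembled contigs, a contig being a transcript or a piece of 1. Values are normalised read counts, and 14468 contigs had a mean of at least 10 over the 8 libraries and were tested. Reads per northern library ran from 17594009 to 23443519. Contigs have no length in the table, so levels of different contigs were not compared, and contigs of the same name may be 1 gene or close copies that share reads. Pigeon Point control 1 and Pigeon Point heat 1 stood apart from the other 6 northern libraries. SR_contig_83, which the table names senescence-associated protein, made up 16.6% and 17.3% of these libraries, whereas in the remaining 6 its share lay between 2.55% and 6.8%. The Wilson 95% intervals, which cover counting error only, ran from 16.6% to 16.6% and from 17.3% to 17.3%. Against its Pigeon Point partner, the first library had a median log2 difference of 1.09 over 46 ribosomal protein contigs in the controls and 1.04 under heat. The same difference was 1.13 and 1.01 over 64 contigs of mitochondrial respiration. Between the Slide Ranch partners no such median exceeded 0.18 for these groups. SR_contig_83 itself did not pass the heat test (log2 fold change 0.39 ± 0.90, adjusted p = 0.907). One Pigeon Point library of each treatment stands apart, so each count is given for the 8 libraries and again for the 6 that remain.

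Among contigs with an informative name, the 12 largest rises under heat were those of chaperones and co-chaperones, inhibitors of NF-kappa-B and of apoptosis, and a deubiquitinase. Falls were fewer and, at the median, smaller. At an adjusted p under 0.05 (limma, Benjamini-Hochberg over all contigs tested), 153 contigs were higher under heat, 1.06% of those tested, and 85 were lower, 0.588%. The median change was 2.45 on the log2 scale among the contigs that rose and -1.85 among those that fell. Rises of at least 4 on the log2 scale were found for 43 contigs and falls of that size for 6. Of the called contigs, 96 that rose and 38 that fell carry an informative name. In the 6 libraries, 526 contigs were higher (3.64%) and 399 lower (2.76%). All 153 and all 85 were among them in the same direction, which is 29.1% and 21.3% of the calls in the 6 libraries, although the fits share those libraries. Leaving out any 1 Slide Ranch library left 87 to 93 higher and 28 to 36 lower, and leaving out Pigeon Point control 1 or 2 left 56 or 51 lower. In whole animals, more cells of a type and more RNA per cell cannot be told apart.

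Values below are in the order Slide Ranch 1, Slide Ranch 2, Pigeon Point 1, Pigeon Point 2, and changes are log2 fold changes on the log2(value + 1) scale with their SE, from 4 libraries of each treatment. Heat and control libraries did not overlap in 8.38% of all contigs tested, in all 153 rises and in 82 of the 85 falls. Where groups are said to be apart, this describes the values and adds no support to a call.

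**Figure D1:**
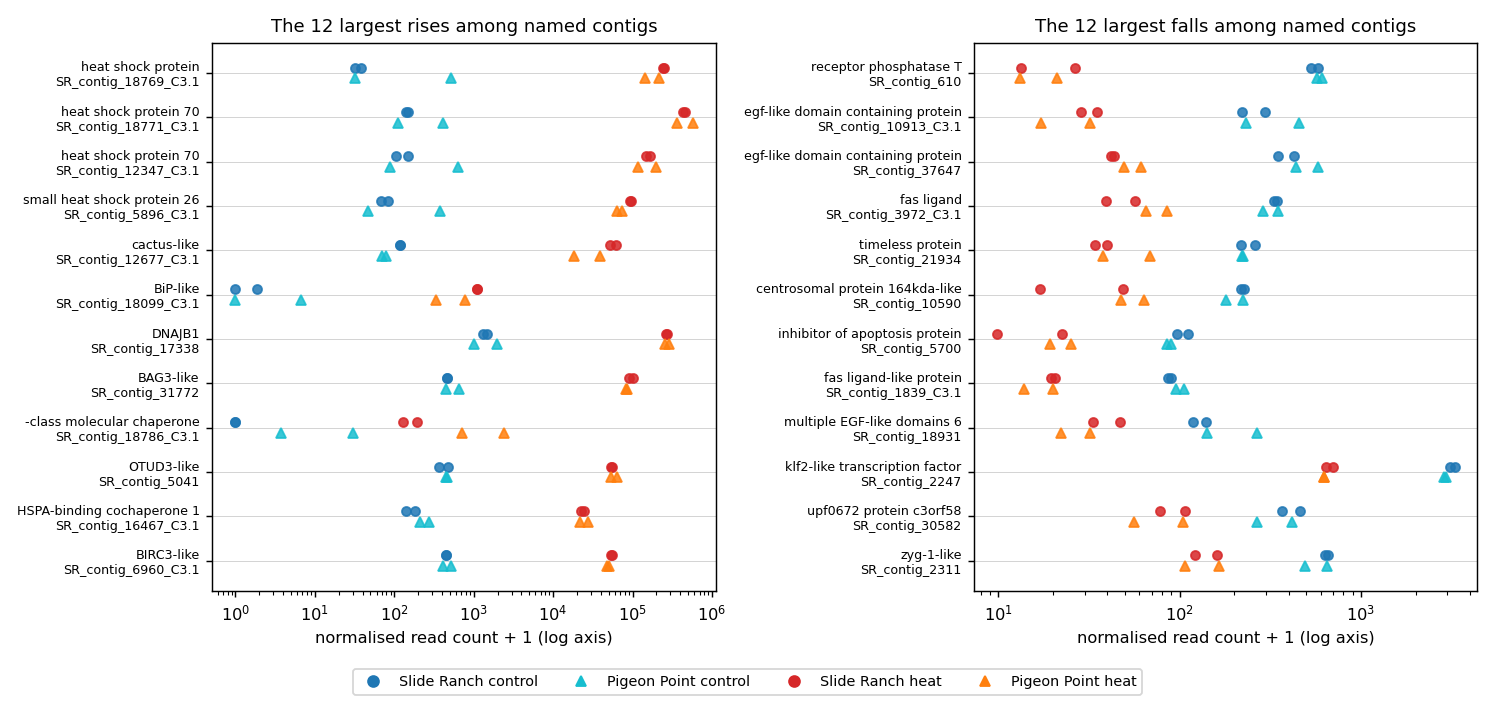
Normalised read count plus 1 (log axis) in each of the 8 northern libraries for the 12 largest rises (left) and the 12 largest falls (right) among called contigs with an informative name; circles are Slide Ranch and triangles Pigeon Point, blue shades control and red shades heat. Every heat library is above every control in the 12 rises and below every control in the 12 falls, and Pigeon Point control 1 is the highest control for several heat shock contigs.

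The HSP70 family, the ATP-driven refolding chaperones, held 6 tested contigs, of which 5 rose and none fell, in the 8 and in the 6 libraries. SR_contig_18771_C3.1, named heat shock protein 70, had 141, 147, 412 and 111 in the controls and 432797, 460506, 570418 and 360565 under heat, a log2 fold change of 11.32 ± 0.38 (SE) with an adjusted p of 1.15e-06. The lowest heat library was 874 times the highest control, and Pigeon Point control 1 was the highest control. SR_contig_12347_C3.1, also HSP70, had 148, 106, 632 and 88 in the controls and 168072, 149231, 197244 and 117654 under heat (log2 fold change 9.81 ± 0.55, adjusted p = 3.16e-05). SR_contig_5144, HSP70 by name too, had 949, 788, 1152 and 729.6 in the controls and 82036, 84336, 82651 and 65095 under heat (log2 fold change 6.45 ± 0.19, adjusted p = 5e-07). These groups did not overlap either, and of the 4 heat libraries Pigeon Point heat 2 was the lowest in SR_contig_5144. Smaller rises were measured for the HSP70 4-like contig SR_contig_2239_C3.1 (log2 fold change 3.14 ± 0.18, adjusted p = 3.17e-05), of the HSP110 kind that acts as a nucleotide exchange factor for HSP70, and for SR_contig_525 (log2 fold change 2.19 ± 0.26, adjusted p = 0.00291). The member that did not pass was SR_contig_851, named HSP70 protein 14 (log2 fold change 0.47 ± 0.23, adjusted p = 0.521).

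A pair of contigs are named heat shock protein with no family number, and both rose. SR_contig_18769_C3.1 had the largest change of all named contigs, with 31.3, 36.9, 519.9 and 30.7 in the controls and 240892, 249849, 215154 and 143937 under heat (log2 fold change 11.60 ± 0.82, adjusted p = 0.000151). Pigeon Point control 1 lay far above the other 3 controls, and without it and Pigeon Point heat 1 the change was 12.57 ± 0.15 with an adjusted p of 8.49e-11. The other, SR_contig_31099, changed less (log2 fold change 1.41 ± 0.22, adjusted p = 0.0159) and did not pass without Slide Ranch control 1, Slide Ranch control 2, Slide Ranch heat 1 or Slide Ranch heat 2. A contig named dnak protein, the bacterial word for HSP70, was in no list and was chosen after its values were seen. This SR_contig_18767_C3.1 had 0, 0, 0 and 0 in the controls and 21.3, 23.4, 187 and 138 under heat (adjusted p = 0.00201), at least 33-fold higher on a floor of 3 counts in each control library. Pigeon Point heat 1 was its highest library, and the groups did not overlap. SR_contig_18786_C3.1, whose name in the table reads -class molecular chaperone and gives no family, had 0, 0, 29 and 2.73 in the controls and 127, 192, 2432 and 709.8 under heat (log2 fold change 7.13 ± 0.66, adjusted p = 0.000757). Its heat libraries were all above its controls, and Pigeon Point libraries were above Slide Ranch ones in both treatments.

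HSP90, which completes the folding of kinases and receptors, was represented by 1 tested contig. SR_contig_806_C3.1 had 6989, 5146, 9214 and 6195 in the controls and 112778, 117654, 118805 and 88738 under heat, a log2 fold change of 4.01 ± 0.22 (SE) with an adjusted p of 3.16e-05. It was abundant in every control already, and its heat libraries lay within a narrow range that was apart from the controls. All 3 small heat shock protein contigs rose, in the 8 and in the 6 libraries. SR_contig_5896_C3.1, small heat shock protein 26, had 81.8, 67.9, 379 and 46.4 in the controls and 95610.1, 92819, 63156 and 72712 under heat (log2 fold change 9.63 ± 0.58, adjusted p = 4.88e-05). SR_contig_10392_C3.1 had 939.9, 690.3, 2736 and 677 in the controls and 41680.2, 34260.1, 83404 and 40082 under heat (log2 fold change 5.48 ± 0.42, adjusted p = 0.000286). SR_contig_1049_C3.1 had 7194, 8967, 20997 and 6228 in the controls and 181342, 180398, 341299.7 and 171095 under heat (log2 fold change 4.45 ± 0.38, adjusted p = 0.000617). In the last of these the first Pigeon Point library was the highest of its treatment, control as well as heat.

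Co-chaperones rose in part: of 18 tested contigs, 8 rose and none fell, and 9 rose in the 6 libraries. DNAJB1, the HSP40 partner of stress-inducible HSP70, had 1463, 1327, 1985 and 1023 in the controls and 266319, 273079.8, 288492 and 255917 under heat as SR_contig_17338 (log2 fold change 7.58 ± 0.22, adjusted p = 4.24e-07). BAG3-like SR_contig_31772, whose vertebrate counterpart hands HSP70 clients to autophagy, had 455, 464, 652 and 446 in the controls and 101108, 89739.9, 85608 and 82558 under heat (log2 fold change 7.49 ± 0.18, adjusted p = 1.79e-07). The HSPA-binding cochaperone 1 contig SR_contig_16467_C3.1, an HSP70 nucleotide exchange factor, had 183, 140.3, 270.1 and 211 in the controls and 22519, 24817, 27227 and 21642 under heat (log2 fold change 6.93 ± 0.19, adjusted p = 3.64e-07). In all 3 the heat libraries of both sites lay close together and far from the controls. Rises followed for DNAJA1, SR_contig_42313 (4.41 ± 0.18, adjusted p = 4.86e-06), for the HSP90 ATPase activator AHA1-like SR_contig_98140 (4.07 ± 0.49, adjusted p = 0.00314) and for DNAJA2, SR_contig_63_C3.2 (1.37 ± 0.25, adjusted p = 0.0375). The last did not pass without Slide Ranch control 1, Slide Ranch control 2, Pigeon Point control 2, Slide Ranch heat 1, Slide Ranch heat 2 or Pigeon Point heat 1. STIP1, which bridges HSP70 and HSP90, rose in both of its contigs, SR_contig_25806 (4.30 ± 0.55, adjusted p = 0.00488) and SR_contig_22372 (1.49 ± 0.18, adjusted p = 0.00302). SR_contig_25806 went from 0.87, 7.38, 5.81 and 3.41 in the controls to 136, 112, 56.9 and 78.6 under heat. Among the 10 co-chaperone contigs that did not pass, DNAJC16-like SR_contig_136917 came nearest (log2 fold change 1.18 ± 0.24, adjusted p = 0.0573) and passed in the 6 libraries (1.15 ± 0.24, adjusted p = 0.0247). DNAJC5, DNAJC9, DNAJC11 and DNAJC13 contigs had changes of -0.41, 0.04, 0.07 and -0.20 in SR_contig_41062, SR_contig_48220, SR_contig_15755 and SR_contig_5754, none of which passed in the 8 or the 6 libraries.

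Further called contigs with names of chaperones or assembly factors were in no list and were chosen because they rose, so they show nothing about such contigs as a group. The myosin chaperone unc-45b-like SR_contig_28713 had 214, 216, 346 and 225 in the controls and 1433, 1575, 1914 and 1104 under heat (log2 fold change 2.59 ± 0.23, adjusted p = 0.000671). Contigs named for assembly factors of the dynein arms of cilia were ZMYND10-like SR_contig_65098 (2.54 ± 0.22, adjusted p = 0.00063) and kintoun-like SR_contig_2295_C3.1 (1.71 ± 0.17, adjusted p = 0.00111). RuvB-like 1, an ATPase of complex assembly, changed as SR_contig_16137 (1.90 ± 0.18, adjusted p = 0.000832), and phosducin-like 3, a partner of the CCT chaperonin, as SR_contig_5532_C3.1 (1.67 ± 0.17, adjusted p = 0.00161). HSP90 co-chaperones SGT1 and cyclophilin D-like gave SR_contig_13117_C3.1 (1.50 ± 0.22, adjusted p = 0.0101) and SR_contig_1914_C3.1 (1.16 ± 0.16, adjusted p = 0.00869). SGT1 was not called without Slide Ranch control 1, Slide Ranch control 2, Slide Ranch heat 1 or Slide Ranch heat 2, and the cyclophilin without Slide Ranch control 2, Slide Ranch heat 1 or Slide Ranch heat 2.

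Together, the 31 contigs of the 5 heat shock and co-chaperone lists took 0.4405%, 0.3935%, 0.4591% and 0.4322% of the reads in the controls and 9.453%, 10.13%, 6.559% and 7.928% under heat. Every heat library was far above every control, and both Slide Ranch heat libraries were above both Pigeon Point ones. With SR_contig_83 taken out of the totals the heat shares were 9.77%, 10.5%, 7.93% and 8.19%. The HSP70 contig SR_contig_18771_C3.1 alone took 2.08%, 2.36%, 1.57% and 1.76% of the heat libraries' reads, against at most 0.00161% in a control. Over these lists, 19 of 30 tested contigs rose, with a median change of 2.66, beside -0.00 over all contigs. Only the heat shock factor-binding protein 1-like contig SR_contig_5522, a regulator of heat shock factor, stood for the factors themselves, and it did not pass (log2 fold change 0.36 ± 0.14, adjusted p = 0.408).

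**Figure D2:**
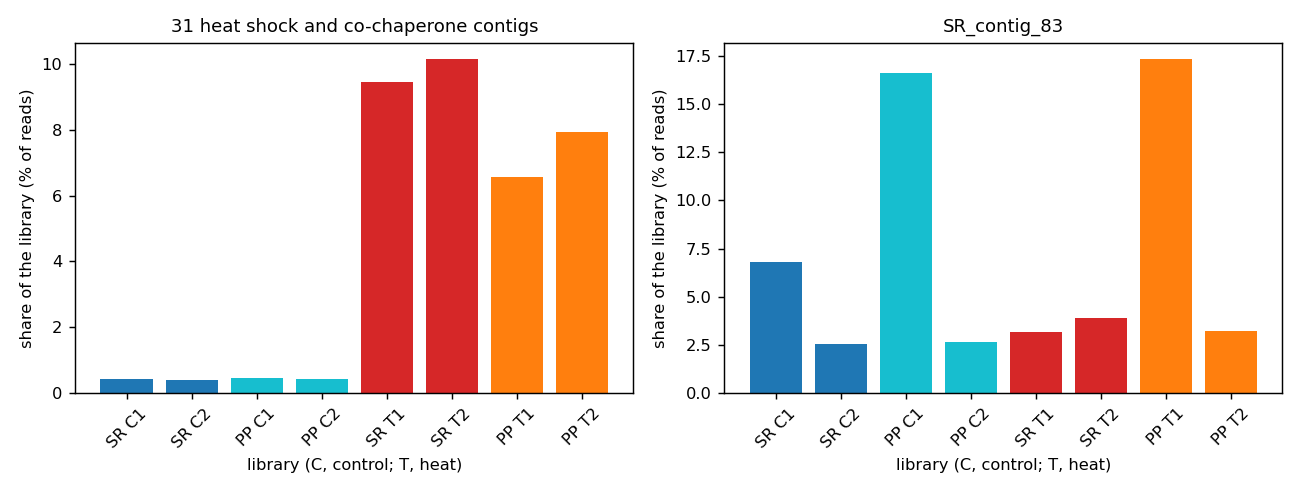
Share of each northern library's reads (%) on the 31 heat shock and co-chaperone contigs (left) and on SR_contig_83 (right), 1 bar per library. The 4 heat libraries reach 6.56% to 10.1% on the left while no control passes 0.459%, and Pigeon Point control 1 and heat 1 stand at 16.6% and 17.3% on the right.

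The chaperonin of the cytosol and the chaperones of mitochondria and the endoplasmic reticulum had more calls in the 6 libraries than in the 8. The CCT chaperonin, a ring that folds actin and tubulin, and prefoldin, which feeds it, had 11 tested contigs. Of these, 3 rose in the 8 libraries and 9 in the 6, with none falling, and all 11 estimates were above 0 with a median of 0.99. The subunit delta-like contig SR_contig_4848 had 6736, 5048, 7868 and 5982 in the controls and 11988, 11172, 19861 and 12205 under heat (log2 fold change 1.09 ± 0.21, adjusted p = 0.0417). Subunit zeta changed as SR_contig_316 (0.99 ± 0.18, adjusted p = 0.0338), and the third call, SR_contig_37796 (0.91 ± 0.17, adjusted p = 0.042), is a t-complex protein 11-like contig that the name pattern took in but that is no chaperonin subunit. The zeta call was lost on leaving out any single library, and the other calls on leaving out most. The eta subunit SR_contig_4710 had the largest change of the group and did not pass in the 8 libraries (log2 fold change 1.23 ± 0.41, adjusted p = 0.302) but did in the 6 (1.15 ± 0.14, adjusted p = 0.00159) and with a replicate block (adjusted p = 0.000245 in limma).

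In mitochondria, HSP60 SR_contig_13515_C3.1, the chaperonin of the matrix, had 667, 505, 1309.9 and 625 in the controls and 2473, 2136, 4102 and 2239 under heat (log2 fold change 1.86 ± 0.28, adjusted p = 0.013). It did not pass without Slide Ranch control 1, Slide Ranch control 2, Slide Ranch heat 1 or Slide Ranch heat 2. Mitochondrial HSP70, named stress-70, had 1717, 1480.2, 3384 and 1552 in the controls and 3788, 3737, 9258 and 3837 under heat as SR_contig_6894 (log2 fold change 1.31 ± 0.32, adjusted p = 0.119) and passed in the 6 libraries (1.26 ± 0.11, adjusted p = 0.000163). A ClpX-type protease subunit, SR_contig_19810, had a change of -0.08 that passed in neither.

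In the endoplasmic reticulum, 1 of 24 tested contigs rose in the 8 libraries and 8 in the 6. The call was SR_contig_18099_C3.1, named a probable BiP, the HSP70 of that compartment, with 0.87, 0, 5.81 and 0 in the controls and 1118, 1086, 338 and 779 under heat (log2 fold change 8.64 ± 0.69, adjusted p = 0.000361). It was close to 0 in the controls of both sites and higher in Slide Ranch than in Pigeon Point heat libraries. The contig named 78 kDa glucose-regulated protein, another name of BiP, was present in every library: SR_contig_7836 had 3188, 3406, 13479 and 2644 in the controls and 16834, 18737, 45159 and 17245 under heat (log2 fold change 2.33 ± 0.49, adjusted p = 0.0638). Its groups did not overlap, and the 6 libraries gave 2.52 ± 0.12 with an adjusted p of 1.75e-06. Disulfide isomerases A3 and A5, calreticulin and calnexin changed by 0.22, 0.26, -0.01 and -0.11 (SR_contig_2813, SR_contig_1772, SR_contig_8948 and SR_contig_3614) and passed in neither fit.

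**Figure D3:**
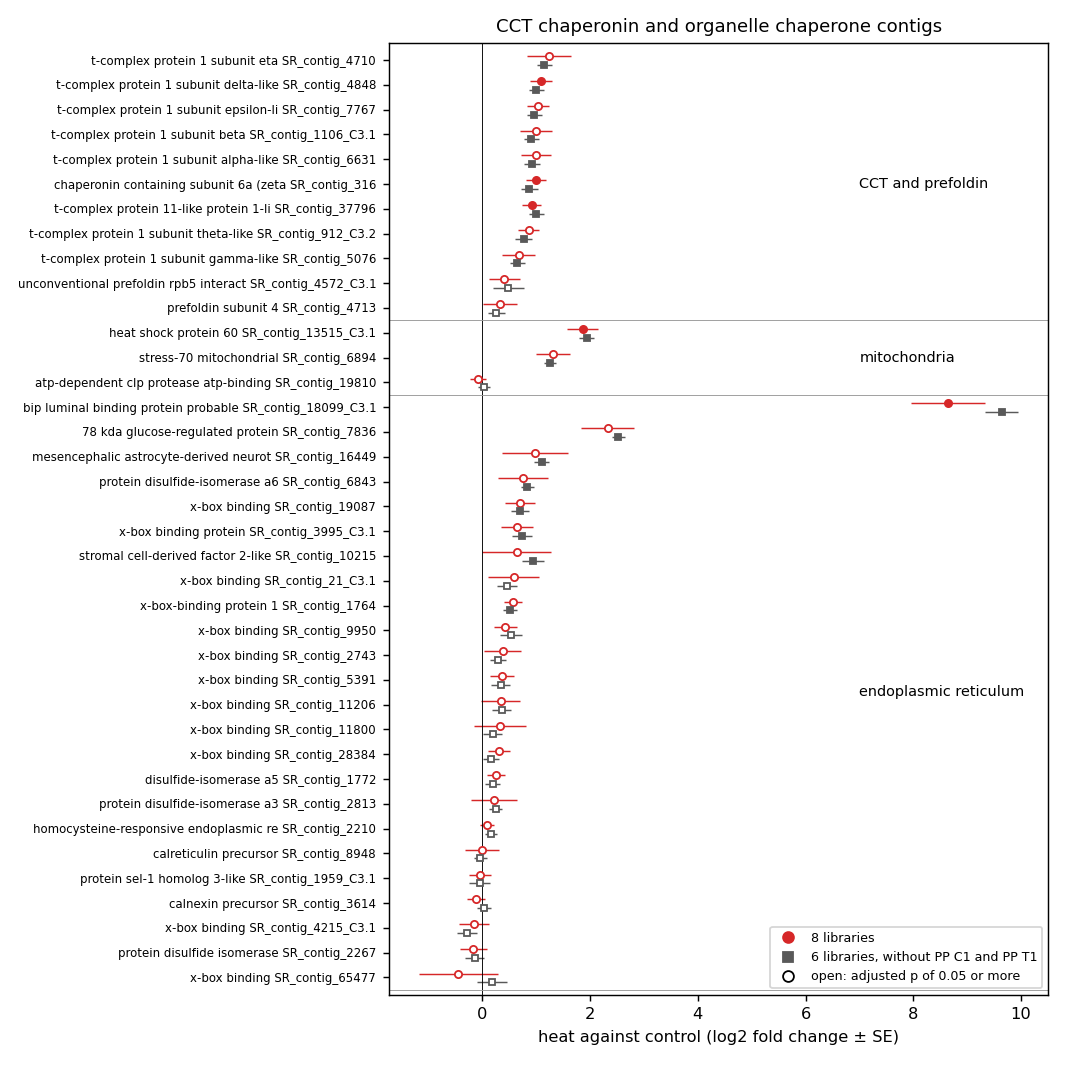
Log2 fold change of heat against control with its SE for each tested contig of the CCT and prefoldin, mitochondrial and endoplasmic reticulum lists, from the 8 libraries (circles) and from the 6 without Pigeon Point control 1 and heat 1 (squares); filled symbols have an adjusted p under 0.05. The estimates lie close to each other while the error bars of the 6 libraries are mostly shorter, and the probable BiP contig at 8.64 lies far to the right of the rest.

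Contigs of protein disposal were counted in 3 lists. Over all contigs tested, 10.8% had an unadjusted p under 0.05, and edgeR called 1.68% and DESeq2 3.89%, the background for such counts here and below. No proteasome contig was called among 33 (0 at an unadjusted p under 0.05, 0 by edgeR and 0 by DESeq2), and none in the 6 libraries. With so few contigs, the limma share over all contigs would also give fewer than 1 call. Of the 33 proteasome estimates, 29 were above 0, with a median of 0.25. Over all contigs, 7212 of 14468 were above 0, with a median of -0.00. This shared direction was not tested. Autophagy and lysosome contigs held 3 rises among 73, and all 3 are named sequestosome, the receptor (p62) that carries ubiquitinated proteins into autophagosomes. SR_contig_7824 had 1313, 1561, 3935 and 1362 in the controls and 17827, 18917, 29191 and 16607 under heat (log2 fold change 3.46 ± 0.34, adjusted p = 0.00104). The others were SR_contig_976_C3.2 (3.31 ± 0.30, adjusted p = 0.000711) and SR_contig_1775_C3.1 (2.66 ± 0.24, adjusted p = 0.000671), and in each of the 3 every heat library was above every control. The OTU domain-containing 3-like contig SR_contig_5041, a deubiquitinase by its name, was among the 12 largest rises with 477, 366, 447 and 463 in the controls and 54139.9, 54828, 64072 and 52956 under heat (log2 fold change 7.01 ± 0.15, adjusted p = 1.19e-07). Its 4 heat values lay within a narrow band. Of 204 contigs of ubiquitin enzymes and TRIM proteins, 3 rose and 2 fell, and 7 and 8 did in the 6 libraries. The limma shares over all contigs were 1.06% and 0.588% in the 8 libraries and 3.64% and 2.76% in the 6. Counts near these shares are no result about the list. The ligase E3C was highest by p (SR_contig_44943 (1.60 ± 0.18, adjusted p = 0.00206)), and the ligase HECTD3 fell (SR_contig_6823_C3.1 (-1.34 ± 0.24, adjusted p = 0.0336)), though not without Slide Ranch control 1, Slide Ranch control 2, Pigeon Point control 1, Pigeon Point control 2, Slide Ranch heat 1 or Slide Ranch heat 2.

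Regulators of cell death moved in both directions. Of 22 tested contigs named as inhibitors of apoptosis, 5 rose and 1 fell in the 8 and in the 6 libraries. BIRC3-like SR_contig_6960_C3.1 had 453, 444, 524 and 406 in the controls and 53960.1, 54802, 48028 and 50427 under heat (log2 fold change 6.83 ± 0.15, adjusted p = 1.19e-07). BIRC2 SR_contig_3493_C3.1 had 47, 54.6, 77 and 41 in the controls and 949, 927, 1069 and 624 under heat (log2 fold change 4.01 ± 0.27, adjusted p = 9.68e-05). In both, the 2 groups were widely apart. SR_contig_18176 and SR_contig_4756, which carry the BIRC2 name too, did not pass (log2 fold change -0.28 ± 0.43, adjusted p = 0.856, and -0.27 ± 0.17, adjusted p = 0.624). The others that rose were SR_contig_1235_C3.2 (4.72 ± 0.53, adjusted p = 0.00224), SR_contig_4364 (3.93 ± 0.15, adjusted p = 2.96e-06) and SR_contig_19211 (3.72 ± 0.32, adjusted p = 0.000567), of which the first, named BIRC7-B, and the last were chosen after their values were seen. SR_contig_5700, by contrast, had 95.7, 111, 88.6 and 84 in the controls and 8.86, 21.4, 18.4 and 24.2 under heat (log2 fold change -2.39 ± 0.35, adjusted p = 0.0109), and its fall was not called without Slide Ranch control 1 or Slide Ranch control 2. A BIRC5 contig, survivin in vertebrates and known there for cell division, did not pass (log2 fold change 0.33 ± 0.25, adjusted p = 0.689 in SR_contig_31746).

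Caspases, BCL2 relatives and the tumour necrosis factor (TNF) pathway held 75 tested contigs, of which 2 rose and 6 fell, and 4 and 6 in the 6 libraries. Contigs named for TNF-family ligands, which start death or inflammatory signalling at the cell surface, made up 5 of the 6 falls. This counts calls alone and gives no share of the tested contigs with such names. The fas ligand SR_contig_3972_C3.1 had 329.8, 342, 286 and 346 in the controls and 38.1, 55.5, 64.3 and 84.7 under heat (log2 fold change -2.46 ± 0.25, adjusted p = 0.00125), and fas ligand-like SR_contig_1839_C3.1 had 88.8, 85.6, 105 and 94.9 in the controls and 19.5, 18.5, 12.9 and 19.2 under heat (log2 fold change -2.37 ± 0.27, adjusted p = 0.00234). In both, no heat library reached a control. A pair of contigs named TNF alpha and 1 named TNF ligand 10-like fell as well, SR_contig_697_C3.1 (-2.72 ± 0.45, adjusted p = 0.0214), SR_contig_63565 (-3.26 ± 0.58, adjusted p = 0.0303) and SR_contig_4041 (-1.65 ± 0.28, adjusted p = 0.0272), chosen after their values were seen. Each of these 3 calls failed on leaving out several single libraries: SR_contig_697_C3.1 passed in 3 of the 8 such fits, SR_contig_63565 in 2 and SR_contig_4041 in 2. The caspase-3 contig SR_contig_94844 fell, from 113, 132, 94.4 and 134 to 54, 37, 33.1 and 34.3 (log2 fold change -1.57 ± 0.25, adjusted p = 0.0163), and was not called without Slide Ranch control 1, Slide Ranch control 2, Pigeon Point control 2 or Slide Ranch heat 2. The rises were TNFAIP3-interacting protein 2, SR_contig_4862 (2.46 ± 0.15, adjusted p = 4.88e-05), a brake on NF-kappa-B in mammals, and the BAX-like contig SR_contig_15738 (1.98 ± 0.23, adjusted p = 0.00289), which carries the name of a pore-forming promoter of apoptosis. An apoptosis regulator R1-like contig, in the name of a BCL2 relative, rose too (SR_contig_13490 (3.13 ± 0.16, adjusted p = 2.16e-05)). SR_contig_94844, SR_contig_15738 and SR_contig_13490 were chosen after their values were seen.

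NF-kappa-B drives immune and survival genes and is held in the cytoplasm by inhibitors, of which cactus is the Drosophila form. Of 7 tested contigs of the inhibitors and the factor, 2 rose and none fell, and 3 rose in the 6 libraries. Both that rose are named cactus-like. SR_contig_12677_C3.1 had 117, 118, 78.4 and 69.6 in the controls and 61836, 52167, 18329 and 39458 under heat, a log2 fold change of 8.70 ± 0.24 (SE) with an adjusted p of 3.79e-07. SR_contig_17890_C3.1 had 328, 373, 269 and 352 in the controls and 25844, 22093, 21938 and 18759 under heat (log2 fold change 6.07 ± 0.16, adjusted p = 2.62e-07). Slide Ranch was above Pigeon Point in both treatments in the first of them. Another cactus-like contig, SR_contig_4454, did not pass (log2 fold change 0.45 ± 0.16, adjusted p = 0.339), nor did the p110 subunit of NF-kappa-B, SR_contig_2514 (log2 fold change 0.38 ± 0.39, adjusted p = 0.78). The Rel contig SR_contig_8817 did not pass in the 8 libraries but did in the 6 (log2 fold change 0.37 ± 0.35, adjusted p = 0.761; 0.62 ± 0.13, adjusted p = 0.0256).

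Among 13 stress and immediate-early transcription factors, 2 rose and 1 fell, and 4 and 2 in the 6 libraries. AP-1, named for the Jun family, had 3646, 3517, 3879 and 3967 in the controls and 10099, 10620.1, 15414 and 11953 under heat as SR_contig_7953 (log2 fold change 1.66 ± 0.15, adjusted p = 0.00071). Its partner in flies, kayak (Fos), rose as SR_contig_4937 (2.51 ± 0.14, adjusted p = 3.16e-05), a contig outside the list that was chosen after its values were seen. The zinc-finger factor KLF2-like SR_contig_2247 went the other way with 3283, 3086, 2854 and 2949 in the controls and 704, 643, 623 and 628 under heat (log2 fold change -2.23 ± 0.13, adjusted p = 3.92e-05), while a contig named KLF534-like rose (SR_contig_133_C3.1 (1.34 ± 0.17, adjusted p = 0.00464)). The 4 heat values of KLF2-like were close to each other and below every control. NRF2, which turns on antioxidant genes, did not pass in the 8 libraries in limma but did in the 6 (log2 fold change 0.51 ± 0.15, adjusted p = 0.23 in SR_contig_287_C3.1; 0.59 ± 0.11, adjusted p = 0.0171). On the 8 libraries its adjusted p was 0.041 with a replicate block in limma and 0.0171 by DESeq2. Hypoxia-inducible factor 1 alpha passed in neither the 8 nor the 6 (log2 fold change 0.10 ± 0.18, adjusted p = 0.876 in SR_contig_11019). Of 31 contigs of MAP kinases and their phosphatases, 2 rose, and 4 rose and 1 fell in the 6 libraries. They were DUSP10, a phosphatase of the stress kinases JNK and p38, with 1131, 1158, 845 and 1060 in the controls and 5559, 6126, 3854 and 5642 under heat in SR_contig_7414 (log2 fold change 2.32 ± 0.17, adjusted p = 0.00018), and the JNK-activating kinase MKK4 (SR_contig_1055 (1.05 ± 0.15, adjusted p = 0.00911)). MKK4 was not called without Slide Ranch control 1, Slide Ranch control 2, Slide Ranch heat 1 or Slide Ranch heat 2.

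Phosphorylation of the initiation factor eIF2 slows protein synthesis under stress. The eIF2-alpha kinase 3-like contig SR_contig_4259_C3.1, PERK in mammals and a sensor in the endoplasmic reticulum there, had 153, 158, 247 and 172 in the controls and 1533, 1423, 1190.3 and 1228 under heat (log2 fold change 2.89 ± 0.20, adjusted p = 0.000151). It was the call among 62 translation factors and tRNA synthetases, of which 3 rose and 2 fell in the 6 libraries. Over all contigs, 1.06% rose in the 8 libraries, and 3.64% rose and 2.76% fell in the 6. So few calls are no result about that list. PPP1R15A, GADD34 in mammals, directs the phosphatase that reverses the mark. Its contig SR_contig_1045_C3.1, chosen after its values were seen, had 766, 735, 511 and 703 in the controls and 4128, 4665, 2274 and 4137 under heat (log2 fold change 2.45 ± 0.21, adjusted p = 0.000634). The eIF2-alpha kinase 1 contig SR_contig_68990 missed the threshold in the 8 libraries and passed in the 6 (log2 fold change 1.31 ± 0.28, adjusted p = 0.0668; 1.61 ± 0.22, adjusted p = 0.00273).

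The largest of the 85 falls was that of a receptor phosphatase. SR_contig_610, receptor-type tyrosine-protein phosphatase T, a surface enzyme that removes phosphate from tyrosine, had 527, 577, 609.9 and 571 in the controls and 12.4, 25.3, 20.2 and 12.1 under heat, a log2 fold change of -5.01 ± 0.28 (SE) with an adjusted p of 3.16e-05. Controls and heat libraries of both sites formed tight and separate groups. It was 1 of 50 receptor tyrosine phosphatase contigs tested, none of which rose, and 2 fell in the 6 libraries. The shares of falls over all contigs were 0.588% in the 8 libraries and 2.76% in the 6. So few calls are no result about this family. EGF-domain proteins, which are surface or secreted proteins with repeats of the epidermal growth factor fold, gave 7 falls and 1 rise among 126 contigs, and 11 and 4 in the 6 libraries. The list's median was 0.11. SR_contig_10913_C3.1 had 296, 219, 453 and 233 in the controls and 27.5, 34.1, 31.2 and 16.1 under heat (log2 fold change -3.40 ± 0.34, adjusted p = 0.00113), and SR_contig_37647 had 424, 348, 579 and 437 in the controls and 42.5, 40.9, 60.6 and 48.4 under heat (log2 fold change -3.18 ± 0.20, adjusted p = 5.83e-05). Contigs named multiple EGF-like domains 6 were among the falls (SR_contig_18931 (-2.28 ± 0.35, adjusted p = 0.0141), SR_contig_1105_C3.1 (-2.04 ± 0.23, adjusted p = 0.00227) and SR_contig_35377 (-1.68 ± 0.27, adjusted p = 0.0194)). The first was not called without Slide Ranch control 2 or Slide Ranch heat 2. The last 2 were chosen after their values were seen, so they show nothing about contigs of that name as a group. One named multiple EGF-like domains 11 rose, with 96.6, 131, 346 and 79.9 in the controls and 2650.1, 3285, 9289 and 2449 under heat in SR_contig_34068 (log2 fold change 4.77 ± 0.52, adjusted p = 0.00196). In that contig the first Pigeon Point library was the highest of each treatment.

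Other falls among the 12 largest concerned the clock and the centriole. Timeless, a light-responsive part of the fly circadian clock, had 259, 216, 224 and 220.5 in the controls and 39, 33.1, 36.7 and 67.5 under heat in SR_contig_21934 (log2 fold change -2.41 ± 0.26, adjusted p = 0.00199), while period and CLOCK contigs changed by -0.13 and -0.32 (SR_contig_13540 and SR_contig_37676) and passed in neither fit. Of 6 clock contigs tested, 1 fell and none rose, and a cryptochrome 1-like contig rose in the 6 libraries (SR_contig_329227, 2.45 ± 0.57, adjusted p = 0.0369). The zyg-1-like contig SR_contig_2311, named for a kinase of centriole duplication in Caenorhabditis elegans, had 630.1, 654, 649 and 491 in the controls and 121, 161, 107 and 164 under heat (log2 fold change -2.14 ± 0.21, adjusted p = 0.00105). CEP164-like SR_contig_10590, named for a centriole protein needed for cilia in vertebrates, had 216, 226, 179 and 222 in the controls and 15.9, 47.7, 62.5 and 46.4 under heat (log2 fold change -2.41 ± 0.38, adjusted p = 0.0173), and was not called without Slide Ranch control 1 or Slide Ranch control 2. UPF0672 protein c3orf58 fell as SR_contig_30582 (-2.14 ± 0.27, adjusted p = 0.00433). These 2 centriole contigs were the calls among 87 of DNA replication and the cell cycle, where 5 rose and 3 fell in the 6 libraries. Over all contigs, 1.06% rose and 0.588% fell in the 8 libraries, and 3.64% and 2.76% in the 6. So few calls are no result about that list. Further falls outside the naming rule were chosen after their values were seen, so they show nothing about other contigs of those names. They were 2 histone H1 contigs (SR_contig_5161 (-1.39 ± 0.24, adjusted p = 0.029) and SR_contig_123 (-1.13 ± 0.17, adjusted p = 0.0136)), transcription factor AP-4 (SR_contig_5816 (-1.85 ± 0.18, adjusted p = 0.00112)) and a TBK1-like kinase of innate immune signalling (SR_contig_34956 (-1.43 ± 0.20, adjusted p = 0.00837)). Of the 8 fits that leave out a library, SR_contig_5161 was called in 3, SR_contig_123 in 4 and SR_contig_34956 in 6.

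Several groups held no call in the 8 libraries, where the limma shares over all contigs of 1.06% and 0.588% give few calls in lists of this size. Antioxidant and thiol enzymes had none of 45 (6 at an unadjusted p under 0.05, 0 by edgeR and 2 by DESeq2), and 5 rose in the 6 libraries. Thioredoxin reductase 3, which keeps thioredoxin reduced, had 271, 229.6, 1292 and 399 in the controls and 731, 976, 3382 and 1339.9 under heat in SR_contig_617_C3.1 (log2 fold change 1.66 ± 0.40, adjusted p = 0.115; 6 libraries 1.75 ± 0.15, adjusted p = 0.000128). Cytosolic ribosomal proteins had none of 46 (7 at an unadjusted p under 0.05, 0 by edgeR and 2 by DESeq2), with a median of 0.48 against -0.00 for all contigs, and 12 rose and 1 fell in the 6. The mitochondrial respiratory chain had none of 64 (3 at an unadjusted p under 0.05, 0 by edgeR and 0 by DESeq2), a median of 0.31, and 5 rises in the 6. Both groups were higher in the first Pigeon Point libraries than in their partners, with summed ribosomal counts of 2026782 in Pigeon Point control 1 and 768567 in control 2. The part of those libraries in the result was not tested beyond the 6-library counts.

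Glycolysis and the TCA cycle had none of 34 (5 at an unadjusted p under 0.05, 0 by edgeR and 2 by DESeq2), and 3 rose and 1 fell in the 6 libraries. Hexokinase type 2 SR_contig_2262 came near the threshold (log2 fold change 0.69 ± 0.16, adjusted p = 0.0873). Tauropine dehydrogenase, an enzyme that molluscs use to make energy without oxygen, had contigs with opposite signs, SR_contig_1733_C3.1 at 0.72 and SR_contig_4484_C3.1 at -1.27 (adjusted p = 0.357 and 0.0612). Innate immune recognition had none of 151 (23 at an unadjusted p under 0.05, 0 by edgeR and 7 by DESeq2), splicing and RNA processing none of 138 (11 at an unadjusted p under 0.05, 0 by edgeR and 2 by DESeq2), and lipid metabolism none of 63 (7 at an unadjusted p under 0.05, 0 by edgeR and 1 by DESeq2). In the 6 libraries these gave 3 and 3, 4 and 2, and 4 and 1 rises and falls. Complement C3-like SR_contig_398_C3.1 changed by 0.70 ± 0.15 (adjusted p = 0.0638), and a toll-like receptor 2 contig, SR_contig_46886, by -1.07 ± 0.26 (adjusted p = 0.107). Solute carriers and ion transport had none of 100 (5 at an unadjusted p under 0.05, 0 by edgeR and 0 by DESeq2), with 2 rises in the 6. Transposable elements had none of 99 (13 at an unadjusted p under 0.05, 1 by edgeR and 5 by DESeq2), with 4 rises and 6 falls in the 6. Metal binding and iron storage had none of 7 (0 at an unadjusted p under 0.05, 0 by edgeR and 0 by DESeq2) and none in the 6. Among 99 contigs of cytochrome P450 and conjugation 1 rose, the NADPH reductase that feeds electrons to these enzymes (SR_contig_9616_C3.1 (0.86 ± 0.15, adjusted p = 0.0336)), and 1 rose in the 6 libraries. The shares of rises over all contigs, 1.06% in the 8 libraries and 3.64% in the 6, are no lower.

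**Figure D4:**
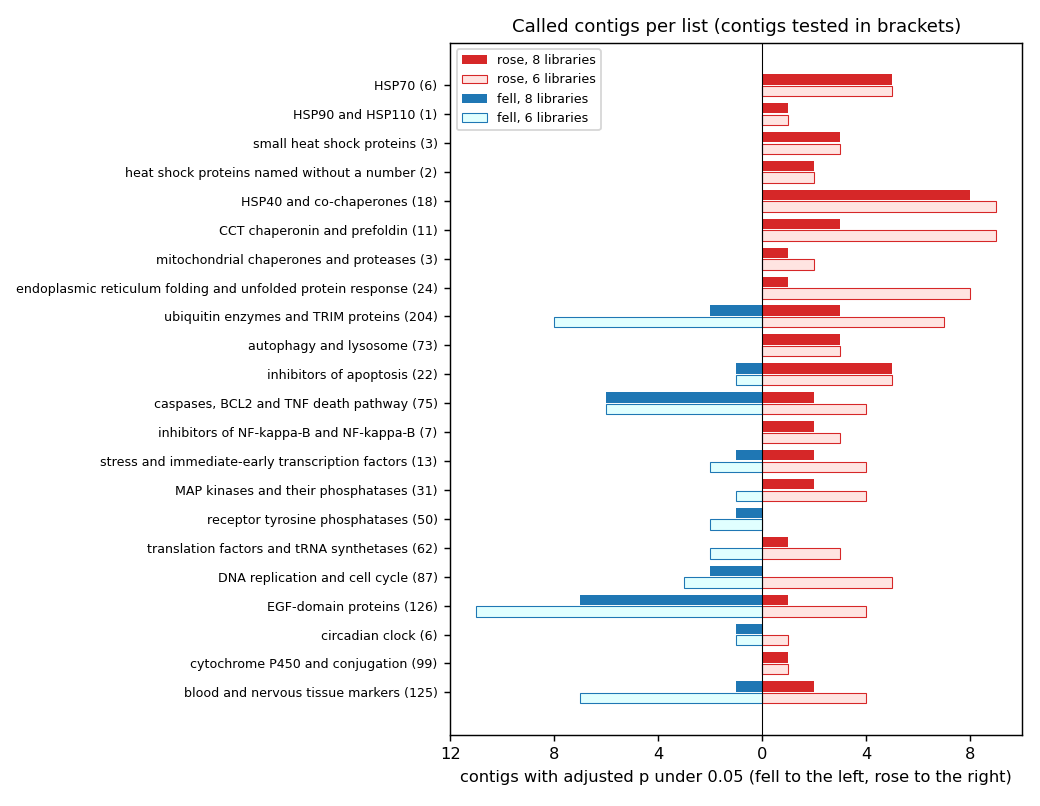
Number of contigs with an adjusted p under 0.05 per list, with rises to the right and falls to the left of 0, for the 8 libraries (solid bars) and the 6 without Pigeon Point control 1 and heat 1 (pale bars), for the lists with at least 1 call in the 8; the number of contigs tested is in brackets. The 5 heat shock and co-chaperone lists have calls on the right alone, while EGF-domain proteins and the caspase, BCL2 and TNF list have most of theirs on the left.

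Markers of the organs that a whole snail holds were detected throughout: no list of organ markers had a member at 0 in all 8 libraries. Ovary and egg markers had no call among 30 (11 at an unadjusted p under 0.05, 0 by edgeR and 0 by DESeq2), although all 30 estimates were above 0 with a median of 0.52, and 2 rose in the 6 libraries. Their summed counts ran from 219748 to 322246 in the controls and from 289653 to 586688 under heat, which overlap. Muscle markers had none of 43 (8 at an unadjusted p under 0.05, 0 by edgeR and 1 by DESeq2) and none in the 6. Their median change was 0.13, yet their sums did not overlap, at 219689.9 to 245694 against 273368 to 316369. Shell, mucus and matrix contigs had none of 174 (24 at an unadjusted p under 0.05, 0 by edgeR and 4 by DESeq2) and 13 rises in the 6. Their median change was 0.28, with sums of 523941 to 592626 against 627329 to 867655. Digestive gland markers had none of 99 (9 at an unadjusted p under 0.05, 0 by edgeR and 1 by DESeq2) and sums that overlap, 676952 to 1079025 against 800003 to 1521769, with 5 rises and 1 fall in the 6. Testis, sperm and cilia markers had none of 79 (4 at an unadjusted p under 0.05, 0 by edgeR and 0 by DESeq2), sums of 46559 to 49879 against 43959.6 to 48993, and 1 fall in the 6. Sums of blood and nervous tissue markers did not overlap, 152714 to 178877 against 181233 to 210601. Their median change was 0.02, however, with 66 of 125 estimates above 0. Over all contigs, 1.06% rose and 0.588% fell in the 8 libraries, and 3.64% and 2.76% in the 6. Blood and nervous tissue markers gave 2 rises and 1 fall among 125, and 4 and 7 in the 6, too few for a result about them. The rises were a contig named for acetylserotonin O-methyltransferase, an enzyme that makes melatonin in vertebrates (SR_contig_34067 (1.96 ± 0.26, adjusted p = 0.00729)), and neuronal PAS domain protein 4, an activity-dependent transcription factor of mammalian neurons (SR_contig_7752 (0.93 ± 0.15, adjusted p = 0.0215)). The fall was neuropeptide Y, a feeding-related signal in molluscs and vertebrates (SR_contig_37586 (-1.28 ± 0.22, adjusted p = 0.0297)), and of the 8 fits that leave out a library, SR_contig_7752 and SR_contig_37586 were called in 2 each. Markers of ingested or symbiotic organisms had none of 4 (1 at an unadjusted p under 0.05, 0 by edgeR and 0 by DESeq2) and none in the 6, and their sums overlap, 2172 to 3272 against 2806 to 5123. Against its Pigeon Point partner the first library had a median log2 difference, in the controls and under heat, of 0.57 and 0.41 for ovary and egg, 0.45 and 0.34 for digestive gland and 0.66 and 0.45 for ingested or symbiotic organism markers. The part of organ make-up in the heat changes was not tested.

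Of the heat-induced contigs, 8 were under 10 normalised counts in every control and at least 50 in every heat library, limits chosen after the values were seen, and no contig showed the reverse. The limits fix their difference, so no test supports it. With names were the probable BiP SR_contig_18099_C3.1, STIP1 SR_contig_25806 and SR_contig_13191, named for the acetyltransferase GCN5, which had 0, 8.86, 0 and 0.683 in the controls and 157, 153, 66.1 and 122 under heat (log2 fold change 5.88 ± 0.69, adjusted p = 0.00291). The others carry no name. SR_contig_17642_C3.1 had 0, 0, 0 and 4.1 in the controls and 1805, 3332, 13198 and 2441 under heat (log2 fold change 11.28 ± 0.63, adjusted p = 3.16e-05), where Pigeon Point heat 1 was the highest library. SR_contig_18794_C3.1 had 1.74, 1.48, 2.9 and 4.78 in the controls and 1275, 1411, 637 and 1048 under heat (log2 fold change 8.22 ± 0.38, adjusted p = 9.89e-06). Contigs without an informative name made up 57 of the 153 rises and 47 of the 85 falls.

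The calls of each site were then set side by side. At Slide Ranch 66 contigs rose and 15 fell, 0.56% of those tested together, and at Pigeon Point 58 rose and 12 fell, 0.484%. Both sites called 62 contigs, 76.5% of the Slide Ranch and 88.6% of the Pigeon Point calls, and 61 of them had the same sign. The 238 contigs called over both sites had the same sign at each, which the call over both sites favours, so their signs are a description of the calls. For HSP70 SR_contig_18771_C3.1 the change was 11.59 at Slide Ranch and 11.04 at Pigeon Point, and for HSP90 SR_contig_806_C3.1 4.26 and 3.76. SR_contig_18769_C3.1 had 12.77 and 10.42, and the gap was -2.36 ± 1.54 (adjusted p = 1 in limma). The count at Slide Ranch fell to 21 or 22 without any 1 of its libraries, and that at Pigeon Point to 31 to 35 without a Slide Ranch library, to 42 without Pigeon Point control 2 and to 37 without Pigeon Point heat 1. Without Pigeon Point heat 2 it rose to 119.

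**Figure D5:**
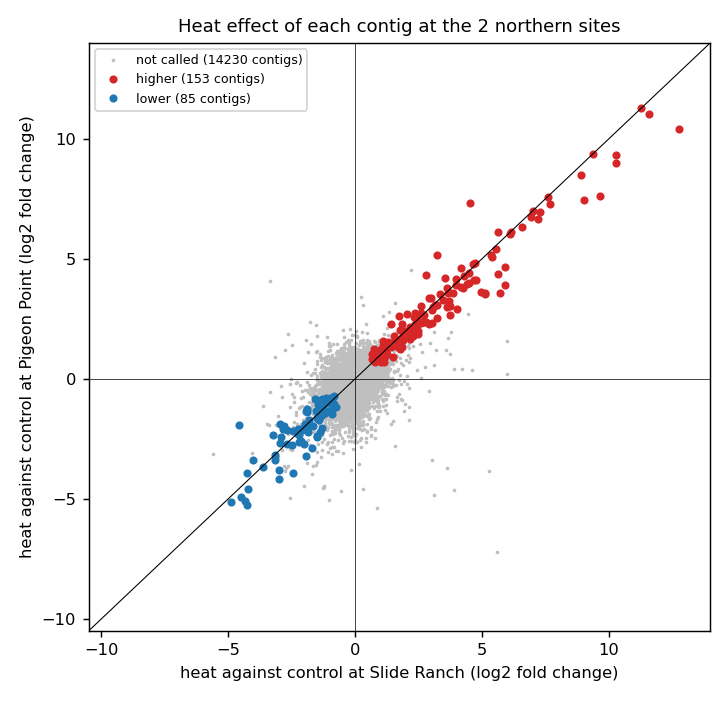
Log2 fold change of heat against control at Slide Ranch (horizontal) and at Pigeon Point (vertical) for each of the 14468 tested contigs, with the 153 that rose over both sites in red, the 85 that fell in blue and the rest in grey; the diagonal marks equal change. Called contigs lie at the upper right and lower left, near the diagonal, and 1 grey contig lies at 5.57 and -7.23.

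No contig passed the test of the difference in heat effect between the sites (0.0% called in limma, 90 contigs at an unadjusted p under 0.05, 0 by edgeR and 5 by DESeq2). The 90 were fewer than the share of 0.05 that would arise with no difference at all. The test was thus a conservative one here, and the lack of calls does not show that the sites respond alike. A contig chosen after its values were seen, SR_contig_378144, partial and named deleted in malignant brain tumors 1, a scavenger receptor cysteine-rich protein, was called at both sites with opposite signs. It had 0, 0, 182 and 122 in the controls and 22.1, 96.5, 0 and 0 under heat. In Slide Ranch only heat libraries had counts, and in Pigeon Point only controls did. The change was 5.57 ± 0.84 at Slide Ranch and -7.23 ± 0.84 at Pigeon Point (adjusted p = 0.0462 and 0.0174 in limma). The difference of -12.80 ± 1.18 had an adjusted p of 0.135 in limma, 1 in edgeR and 5.76e-10 in DESeq2. The fitted sizes depend on the pseudocount, since a group at 0 gives no ratio.

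The study set northern against southern snails. La Jolla control 1 and La Jolla heat 1 also had large shares of reads on SR_contig_83, at 17.1% and 39.2%, and are part of the southern estimates. In the fit of all 16 libraries, heat in the southern snails called 1.73% of 14444 contigs, and 121 of the 153 northern rises and 59 of the 85 northern falls were among them in the same direction. All 152 rises and 85 falls tested there had the northern sign. Southern estimates were smaller in 126 of the rises, with a median difference, southern minus northern, of -0.26, and in 47 of the falls, with a median difference of 0.04. These contigs were chosen by their northern change, so estimates from other libraries can be smaller for that reason too. No contig passed the test of the regional difference itself (0.0% called in limma, 197 at an unadjusted p under 0.05, 0 by edgeR and 0 by DESeq2). The 197 were also fewer than a share of 0.05, so the lack of calls does not show that the regions respond alike. For HSP70 SR_contig_18771_C3.1 the southern change was 9.57 and the difference -1.75 ± 0.59 (adjusted p = 1 in limma), and for HSP90 SR_contig_806_C3.1 they were 3.33 and -0.68 ± 0.26 (adjusted p = 1 in limma). For cactus-like SR_contig_12677_C3.1 they were 7.55 and -1.14 ± 0.52 (adjusted p = 1 in limma). In the receptor phosphatase SR_contig_610 the southern change of -4.86 lay within 0.40, 1 SE, of the northern one.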

How the data were processed

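RNA of whole snails was sequenced as paired 100-base reads. CASAVA and DESeq appear, with no version, in the submitters' processing notes. What assembled and mapped the reads, and which filters were used, is not given in the sources used here. In the deposited table each value is a signal, namely reads over a size factor for that library: the smallest step divides 100% of values to within 0.01 read, and edgeR 4.0.16 and DESeq2 1.42.0 were run on the reads so recovered.

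For the main comparison, log2(value + 1) was modelled with site as a term and a variance trend (limma 3.58.1 under R 4.3.3), over the 8 northern libraries and contigs with a mean of at least 10. Site effects and their difference used 1 mean per site and treatment, and the regional difference used all 16 libraries. P-values were adjusted by Benjamini-Hochberg over all contigs tested, with a threshold of 0.05. The steps were tested on simulated data.

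Members and lists were chosen with earlier results of these data known. The 40 lists are name patterns, some amended after the names, not the values, were read, and contigs without a name are in none. Named contigs are at most 12 rises and 12 falls, taken by size of change, with a mean of at least 50 and the same direction at both sites, up to 3 per list with the smallest p, up to 6 per difference tested, called heat shock contigs and SR_contig_83. Contigs added after their values were seen are marked in the text, and list members that did not pass are named to account for the list. Fold changes on this scale understate changes of low contigs. A library left alone in its group was taken to vary as much as the rest. The libraries of a group differed by far more than counting noise (chi-square per degree of freedom 27.6 to 402). They were thus not taken as splits of the same reads, and each was counted once. These values do not show whether the libraries are independent samples. Alternatives were other pseudocounts, filters, scaling, tests, libraries and a replicate block.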

Additional observations from a re-analysis of the deposited data

Results flagged for a closer look

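Over 36 contigs, each with 4 control and 4 heat libraries, 8 of 72 groups had 1 library far from the other 3. A share of about 1 in 20 holds for independent groups of like spread. These groups share the same libraries and pool 2 sites, so their count cannot be set against that share. Pigeon Point control 1 was high among the controls for the heat shock protein SR_contig_18769_C3.1 (519.9 normalised counts), BAG3-like SR_contig_31772 (652) and STIP1 SR_contig_22372 (642). Pigeon Point heat 1 was high among the heat libraries for the small heat shock protein SR_contig_1049_C3.1 (341300) and DNAJA2 SR_contig_63_C3.2 (9556), and low for fas ligand-like SR_contig_1839_C3.1 (12.9). Pigeon Point heat 2 was low for HSP70 SR_contig_5144 (65095), and Pigeon Point control 2 was low among the controls for zyg-1-like SR_contig_2311 (491). All 8 of these values are from Pigeon Point libraries.

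SR_contig_378144 moved in opposite directions at the 2 sites, in every library, with a Pigeon Point minus Slide Ranch difference of -12.80 on the log2 scale, which did not pass in limma (adjusted p = 0.135).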

How the results depend on the processing

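Counts over both sites were 526 higher and 399 lower without Pigeon Point control 1 and heat 1, 290 and 273 by DESeq2, 477 and 323 with site and replicate number as a block, and 471 and 446 by edgeR without the same libraries, a fit added after seeing the data. With 1 mean per site and treatment 49 were lower, and leaving out 1 library gave 87 to 148 higher and 28 to 90 lower. At Slide Ranch the count was 343 without the first Pigeon Point libraries, 139 with 16 libraries, 228 with the block, 214 by DESeq2 and 21 to 92 on leaving out 1 library. At Pigeon Point the same settings gave 169, 138, 371, 215 and 31 to 119. The site difference had 1 call with the block, 5 by DESeq2 and 0 to 1 on leaving out 1 library, and the regional difference 2 without the first Pigeon Point and La Jolla libraries. The cause of these shifts was not tested. Other pseudocounts, filters, TMM, robust shrinkage and edgeR kept all counts of the main comparison within 1.5 times. Of 60 named contigs called, 45 were called in every setting, and no named contig changed sign past its threshold. Deviations from the group means correlated at 0.70 between same-numbered libraries at Pigeon Point and at -0.0613 at Slide Ranch. The sites thus did not give the same answer on whether the numbers pair the samples. The main fit did not use them as pairs, so the part shared at Pigeon Point counted as spread among libraries. With 2 libraries per group, small changes cannot be told from library spread.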
